A study of Mus musculus with 16 samples.

Results

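The 8 aorta arrays of placebo-treated mice are described here, out of 16 arrays in the study. They fall into 2 groups of 4 that the labels name M and N, and an array is called M1 to M4 or N1 to N4 by its group and replicate number. The members were taken by label alone, and the other 8 arrays, 4 of mice given medroxyprogesterone acetate (MPA) and 4 of mice given norethisterone acetate (NET-A), enter only where a gene is looked up in samples that had no part in choosing it. All 8 placebo samples share the same background: female C57BL/6 mice lacking ApoE, ovariectomized when 4 to 5 weeks old, given a pellet without hormone 2 weeks later and kept on a high-fat Western-type diet. The aorta was taken after 78 to 90 days, from behind the arch to about 1 mm short of the renal arteries, and snap-frozen. An Agilent mouse 1-colour array was hybridised with Cy3-labelled RNA made from 100 ng of each sample's total RNA. The labels name no mouse with ovaries, no mouse with ApoE and no hormone measurement, so the placebo arrays show a state and not a change. They also do not say that the 4 samples of a group came from separate animals, so every standard deviation (SD) below measures the spread between these arrays, which may be partly technical. Groups M and N were scanned apart with different scanner software, and no test was made between them. Their values are given side by side.

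The wall of the aorta has an inner endothelium, a media of smooth muscle cells between elastic sheets, and an outer adventitia of fibroblasts, small vessels and nerves that lies in a bed of white and brown fat. Mice without ApoE clear lipoprotein remnants poorly, and on a high-fat diet their aortas collect macrophages that take up cholesterol and become foam cells. Ovariectomy removes the main source of oestradiol and progesterone, which act through the nuclear receptors Esr1, Esr2 and Pgr, while synthetic progestins can also bind other steroid receptors, among them the glucocorticoid and mineralocorticoid receptors Nr3c1 and Nr3c2.

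A level is the log2 signal of a gene's probe minus the 75th percentile of log2 signals on the same array, so 0 is the brightness of the 75th percentile. A rank counts from 1 for the brightest of up to 28369 genes on an array, and a percentile rank runs up to 100 for the brightest. Ranks order probe signals, which depend on the probe as well as on the RNA, and are not an order of molecule numbers. A gene counts as detected where the scanner software marked its spot as well above background. By that mark 13351 genes (47.1%) were detected on all 4 M arrays and 18034 (63.6%) on all 4 N arrays, 13113 (46.2%) were detected on all 8, and 5134 (18.1%) on none of the 8. On none of the 4 arrays of a group were 11306 genes (39.9%) detected in M and 5715 (20.1%) in N. The mark was less strict in group N. Of 917 olfactory receptor genes, a family of the nose used here as a measure of background, 22 (2.40%) were marked on all 4 M arrays and 299 (32.6%) on all 4 N arrays. A mark in group N alone is therefore given below as a mark, with the level beside it.

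Within a group the arrays correlated at a Pearson r of 0.965 to 0.982 (M) and 0.972 to 0.983 (N) over the genes detected on all 4 arrays of the group, and no spot was saturated. Arrays M1 and M2 shared a slide, as did M3 and M4, and N3 and N4, while N1 and N2 were each on a slide of their own. Several arrays held patches of neighbouring spots that departed together from the other 3 arrays of the group. The patches took 2.03% of spots on M1, 3.08% on M2, 1.89% on M3 and 0.539% on M4. On the N arrays they took 2.08% of spots on N1, where all were too bright with a median departure of 1.48 log2 units, 1.34% on N2, 0.327% on N3 and 0.122% on N4. These spots bear on the list of the most variable genes, as given below.

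**Figure D1:**
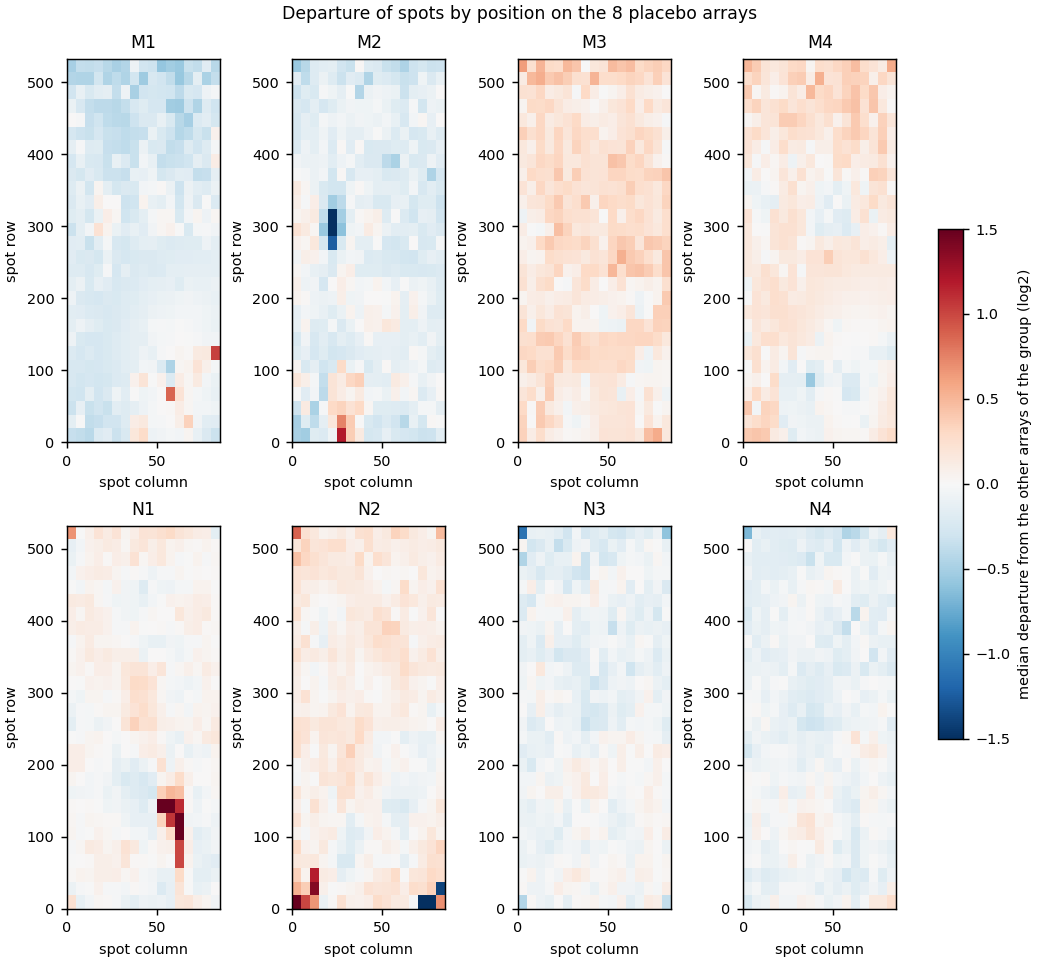
Map of the 8 placebo array surfaces, with spot column on the x axis, spot row on the y axis and colour for the median log2 departure of spots in a bin from the other arrays of the group. The patches on M2, N1 and N2 stand out, and N3 and N4 hold the fewest patch spots.

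Ribosomal RNA, globins, mitochondrial transcripts and smooth muscle genes gave the brightest signals of the placebo aorta. Of the 25 genes of highest mean rank in each group, 14 were the same: Rn18s, Hbb-bt, Hba-a1, Hba-a2, COX2, CYTB, Fth1, Rplp1, Rps12, Lrrc58, Igfbp7, Mgp, Myl6 and Myl9. Rn18s, the 18S ribosomal RNA, ranked 1 to 2 on the M arrays and 1 on each N array. The beta globin gene Hbb-bt ranked 1 to 2 in M and 2 to 4 in N, and the alpha globin gene Hba-a1 ranked 3 to 4 and 2 to 5. These are mRNAs of red blood cells, and near-identical globin copies can share signal. COX2 and CYTB, the mitochondrially encoded cytochrome c oxidase subunit and cytochrome b, ranked 4 to 11 and 12 to 66 in M, and 8 to 9 and 13 to 17 in N. The CYTB spot of M2, the lowest of the 4, lay in a patch.

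The rest of the shared top genes were vessel wall, iron and ribosome genes. Igfbp7, a secreted protein made by vessels, ranked 6 to 14 in M and 11 to 14 in N. Mgp, the matrix Gla protein that inhibits calcification of arteries, had levels of 9.20, 9.12, 8.80 and 9.21 on M1 to M4 and of 9.03, 8.92, 8.96 and 8.87 on N1 to N4. All 8 values of Mgp lay within a narrow band, with SDs of 0.19 and 0.07. Fth1, the heavy chain of the iron store ferritin, ranked 16 to 22 and 15 to 20. The 10 brightest genes of an array gave 4.32% to 6.27% of the summed gene signal in M and 7.76% to 10.0% in N, and the 100 brightest gave 28.2% to 28.9% and 27.3% to 30.2%.

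Genes that reached the top 25 of group M but not of group N included Fabp4, the fatty acid carrier of adipocytes, with ranks of 20 to 39 in M and 34 to 82 in N, and Lyz2, the lysozyme of macrophages and neutrophils, with ranks of 5 to 21 and 19 to 91. Conversely Acta2, Tagln and Flna were among the top 25 of group N but not of group M. As the groups were scanned apart, these orders cannot be told apart from the scan.

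Contractile smooth muscle genes had the highest median rank of the cell type lists, in M closely followed by the foam cell list at 97.0 ± 0.73. The contractile list of 25 genes had a median percentile rank of 97.8 ± 0.40 (SD, n = 4 arrays) in M and 99.1 ± 0.21 in N, and 23 of its 25 members were detected on all 8 arrays against 46.2% of all genes. Myl9, the regulatory light chain whose phosphorylation starts contraction, had levels of 9.56, 9.15, 9.31 and 9.07 in M and of 9.56, 9.93, 9.57 and 9.29 in N. Acta2, smooth muscle actin, had levels of 8.92, 8.84, 8.70 and 8.59 in M and of 9.80, 9.84, 9.57 and 9.31 in N. Tagln, an actin-binding protein of smooth muscle, had levels of 8.46, 8.41, 8.86 and 8.85 in M and of 9.79, 9.76, 9.32 and 9.06 in N. Array M4 was the lowest of its group for Acta2 and Myl9, and N4 was the lowest of its group for Acta2, Tagln and Myl9. In all, 22 of 24 contractile members detected in N had their lowest value on N4.

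Cnn1, the thin filament protein calponin, ranked 61 to 82 in M and 26 to 30 in N, and Flna, which crosslinks actin, ranked 39 to 59 and 11 to 17. Myh11, the smooth muscle myosin heavy chain, had levels of 5.60, 5.53, 5.02 and 5.04 in M and of 6.32, 6.62, 6.68 and 6.13 in N. Actg2, the actin of visceral smooth muscle, was also well detected, with levels of 5.72, 5.30, 4.48 and 4.27 in M and of 6.51, 6.53, 6.82 and 6.33 in N. Its M values fell into the slide pairs, M1 and M2 above M3 and M4. The regulators of the contractile programme gave dimmer signals. The list of 16 regulators, among them Srf, Myocd and Notch3, had median percentile ranks of 83.8 ± 0.26 in M and 89.2 ± 0.60 in N, and 13 of 16 were detected on all 8 arrays.

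Srf and its partner Myocd act on the CArG box of muscle promoters. In the 250 bases before the start of each gene in the RefSeq promoter table (GRCm38.p6), a CArG box on either strand was present in 439 of 27025 genes (1.62%), in 2 of 20 matched contractile genes (10%), in 2 of 21 skeletal muscle genes (9.52%) and in 3 of 14 cardiac muscle genes (21.4%). No box lay in these windows of 13 endothelial, 14 macrophage, 16 adipocyte and 23 ribosomal protein genes matched. Only CC and GG around a run of A and T letters alone, as printed below, counted as a box. A box with another letter in the run, or one outside the 250 bases, was not counted. The boxes are shown for 2 of the brightest smooth muscle genes and for the 3 heart muscle genes, whose levels across arrays are given below. Each line is the gene strand, 5′ to 3′, with the box in capitals. A match is a description of the letters and was not tested as a site.
Myl9, chr2:156775293-156775322, plus strand, 161 bases before the start: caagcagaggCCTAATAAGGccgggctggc
Myl6, chr10:128493040-128493069, minus strand, 50 bases before the start: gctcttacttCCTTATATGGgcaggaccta
Actc1, chr2:114052903-114052932, minus strand, 47 bases before the start: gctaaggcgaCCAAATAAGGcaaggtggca
Myl3, chr9:110763583-110763612, plus strand, 85 bases before the start: gagccaatgcCCTTTTATGGccctgtccct
Myl7, chr11:5898824-5898853, minus strand, 61 bases before the start: ccattcctctCCTTATTTGGgcctctgggt
Myl6, the essential light chain of smooth and nonmuscle myosin, ranked 13 to 25 in M, where its M2 spot lay in a patch, and 7 to 9 in N. Actc1, named for heart actin, is also made by vascular smooth muscle, and it did not follow the other heart genes in these arrays. Its levels were 6.18, 6.17, 5.28 and 5.52 in M and 7.55, 7.44, 7.66 and 7.13 in N.

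**Figure D2:**
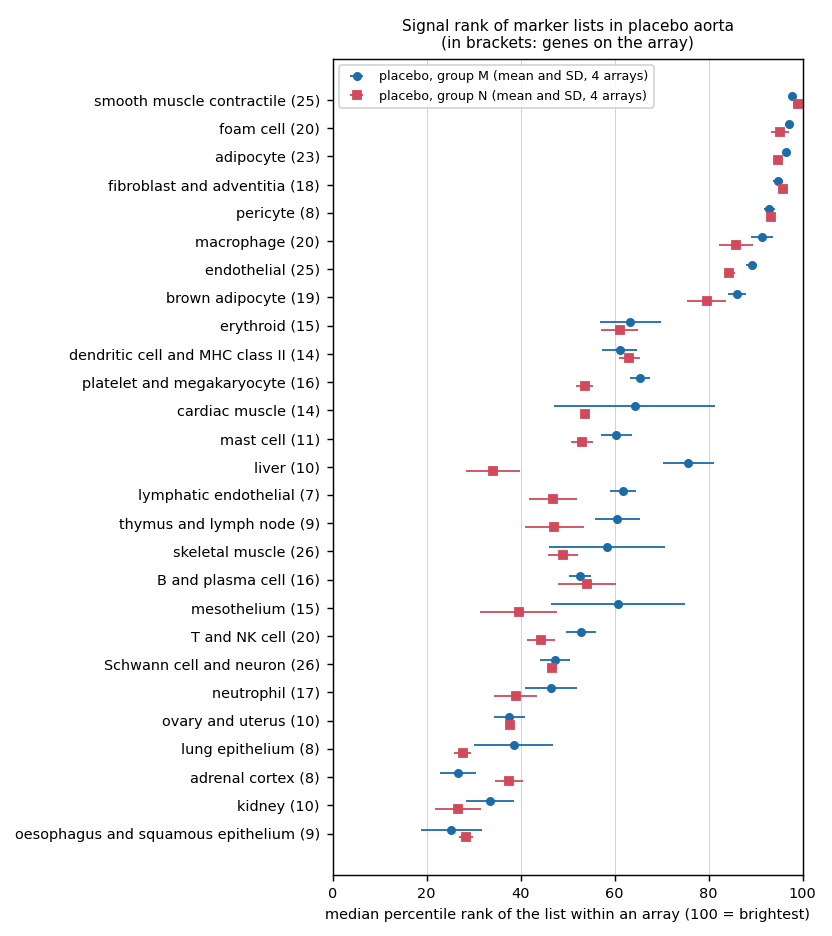
Median percentile rank of the genes of each cell type or outside-tissue list, as the mean of 4 arrays with SD bars, for group M (circles) and group N (squares), with the number of genes in brackets. Smooth muscle, foam cell, adipocyte and fibroblast lists sit near the top of the scale, and squamous epithelium, adrenal and kidney lists sit near the bottom.

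Matrix and fibroblast genes also ranked high, though in M below the foam cell and adipocyte lists given further on. The 18 fibroblast and adventitia genes were all detected on all 8 arrays and had median percentile ranks of 94.8 ± 1.05 in M and 95.8 ± 1.12 in N. Dcn, the collagen-binding proteoglycan decorin, had levels of 8.99, 9.14, 8.45 and 8.43 in M and of 7.32, 7.24, 7.26 and 7.46 in N. Col1a2, a chain of type I collagen, had levels of 8.38, 8.46, 7.58 and 7.90 in M and of 7.85, 7.82, 7.72 and 7.77 in N, an SD of 0.06 in N. Of 24 collagen genes 19 were detected on all 8 arrays (median percentile ranks 90.3 ± 0.87 and 94.1 ± 0.64), and of 37 elastic fibre and matrix genes 35 were (93.7 ± 0.48 and 96.2 ± 0.70). Eln, elastin itself, had levels of 2.67, 2.99, 3.09 and 3.07 in M and of 4.56, 3.84, 3.74 and 3.78 in N, so N1 stood above its group. Fbn2, the fibrillin of developing tissue, was marked on 1 array of each group. The 29 matrix proteases and inhibitors had median percentile ranks of 85.9 ± 1.38 and 88.8 ± 3.99, and 26 members were detected on all 4 arrays of each group.

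Endothelial genes were all detected but at a lower rank than muscle and matrix genes. The 25 members, from Vwf, the clotting factor carrier stored by endothelium, to Nos3, the endothelial nitric oxide synthase, were each marked on all 8 arrays, with median percentile ranks of 89.2 ± 1.25 in M and 84.5 ± 1.25 in N. Vwf had levels of 3.99, 4.28, 4.17 and 3.92 in M and of 4.25, 4.53, 4.21 and 4.74 in N. Nos3 had levels of 1.01, 0.90, 1.21 and 0.83 in M and of 0.71, 0.87, 0.24 and 0.80 in N. The 8 pericyte genes on the array, among them Pdgfrb and Rgs5, had median percentile ranks of 92.9 ± 1.16 and 93.4 ± 0.75. Lymphatic markers were dimmer (61.8 ± 2.82 and 46.9 ± 5.06), with Prox1, the master regulator of lymphatic identity, marked on 2 M arrays and no N array.

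Fat gave a strong signal. The adipocyte list of 23 genes on the array had median percentile ranks of 96.5 ± 0.39 in M and 94.8 ± 0.61 in N, and the brown adipocyte list of 19 genes had 86.0 ± 1.90 and 79.6 ± 4.19. Ucp1, the proton channel by which brown fat makes heat, had levels of 8.71, 8.97, 8.92 and 8.43 in M and of 7.05, 6.65, 6.84 and 7.05 in N, which are ranks of 14 to 52 and 73 to 111. Cidea, a lipid droplet protein of brown fat, ranked 64 to 101 and 81 to 140. Fasn, the fatty acid synthase, ranked 26 to 65 and 18 to 33. Adipoq, the adipocyte hormone adiponectin, had levels of 5.11, 5.62, 4.86 and 5.29 in M and of 3.40, 3.24, 3.24 and 3.88 in N. Bmp8b, a signal of brown fat, was the only brown adipocyte member detected on none of the 8. Lep, leptin, had levels of -3.36, -3.53, -2.93 and -5.38 in M and of -2.18, -2.39, -3.63 and -2.93 in N, far below the 75th percentile. In RNA from whole tissue, fewer cells of a type and less RNA per cell cannot be told apart, so these ranks are no measure of how much fat adhered to a sample.

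Among genes of energy use, oxidative phosphorylation genes ranked above both fat lists. Genes of cholesterol synthesis and lipogenesis ranked below the adipocyte list. The 30 oxidative phosphorylation genes had median percentile ranks of 98.8 ± 0.10 and 98.6 ± 0.06, the 21 fatty acid oxidation genes 96.2 ± 0.75 and 94.0 ± 1.78, and the 23 genes of cholesterol synthesis and lipogenesis 81.9 ± 0.74 and 84.7 ± 0.99. The 35 ribosomal protein genes of the list stood at 99.6 ± 0.08 and 99.7 ± 0.03, the 4 mitochondrially encoded genes at 100.0 ± 0.01 and 99.9 ± 0.02, and the 16 heat shock genes at 96.2 ± 0.52 and 97.0 ± 0.64.

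Macrophage and foam cell genes were detected throughout. All 20 macrophage genes and all 20 foam cell genes were marked on all 8 arrays, with median percentile ranks of 91.3 ± 2.33 and 85.8 ± 3.60 for macrophages and of 97.0 ± 0.73 and 95.2 ± 1.97 for foam cells. Lyz2 had levels of 9.24, 9.32, 8.72 and 9.26 in M and of 7.50, 6.84, 7.14 and 8.31 in N. Spp1, the secreted osteopontin of lesion macrophages and stressed smooth muscle, had levels of 8.05, 7.71, 6.60 and 7.92 in M and of 5.04, 4.69, 5.18 and 6.37 in N. Ctsb, a lysosomal protease, had levels of 8.20, 8.62, 8.16 and 8.20 in M and of 6.47, 6.12, 6.32 and 7.08 in N. N4 held the highest value of its group for all 3 genes. Several foam cell genes, such as Lpl, Cd36, Ctsb and Cd9, are also made by adipocytes or fibroblasts.

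Lymphocyte and granulocyte genes lay near the middle of all genes. The T and NK cell list stood at 52.9 ± 3.28 and 44.3 ± 2.97, with 7 of 20 genes detected on all 8 arrays (46.2% of all genes were), the B and plasma cell list at 52.6 ± 2.40 and 54.1 ± 6.17 with 8 of 16, and the neutrophil list at 46.5 ± 5.58 and 38.9 ± 4.61 with 5 of 17. Mast cell genes stood at 60.4 ± 3.28 and 53.1 ± 2.42, platelet genes at 65.4 ± 2.19 and 53.6 ± 1.81, and dendritic cell and MHC class II genes at 61.1 ± 3.71 and 63.1 ± 2.27. The defining genes Ncr1 (NK cells), Pax5 (B cells), Siglech (plasmacytoid dendritic cells), Elane (neutrophil precursors) and Tpsab1 (mast cells) were detected on none of the 8 arrays. They are 5 of the 78 genes of these lists (6.41%), beside 18.1% of all genes. The MHC class II genes H2-Ab1 and Cd74 were well detected, with levels of 3.68, 5.10, 4.20 and 6.43 for H2-Ab1 in M and of 4.47, 4.00, 3.23 and 4.74 in N. Complement genes stood at 88.1 ± 1.87 and 91.5 ± 2.12, interferon response genes at 74.8 ± 1.88 and 73.2 ± 2.14, cytokines and chemokines at 67.4 ± 5.79 and 58.6 ± 5.59, and adhesion molecules at 83.6 ± 2.68 and 81.0 ± 3.40. Among 38 cytokines and chemokines Il12b, Il17a and Csf2 (7.89%) were detected on none of the 8 arrays.

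Kidney, adrenal, squamous, lung and ovary lists had low ranks. Kidney genes had median percentile ranks of 33.5 ± 5.11 and 26.7 ± 4.89, adrenal cortex genes 26.6 ± 3.80 and 37.5 ± 3.04, squamous epithelium genes 25.3 ± 6.44 and 28.4 ± 1.51, lung epithelium genes 38.6 ± 8.38 and 27.7 ± 1.83, and ovary and uterus genes 37.6 ± 3.27 and 37.8 ± 0.62. Thymus and lymph node genes stood at 60.6 ± 4.84 and 47.1 ± 6.29. Of 64 genes of these lists and the liver list, 13 (20.3%) were detected on none of the 8, a share near the 18.1% of all genes. Among them were the podocyte gene Nphs1, the kidney transporter Slc12a1, the adrenal enzymes Cyp11a1 and Cyp11b2, the surfactant gene Sftpc, the squamous genes Sprr3 and Dsg3, the luteinizing hormone receptor Lhcgr and the oocyte gene Oosp1. Nerve genes were also dim (47.3 ± 3.24 and 46.7 ± 1.07), with Th, Nefm, Snap25, Gap43 and Cdh19, 5 of 26 genes (19.2%), detected on none of the 8. The liver list stood at 75.7 ± 5.40 in M beside 34.0 ± 5.75 in N. Ahsg, the serum protein fetuin A, had levels of 3.90, 3.49, 4.32 and 3.29 in M and of -0.54, -0.61, -1.02 and 0.02 in N. Fgb, a chain of fibrinogen, had levels of 0.76, -0.00, 1.25 and -0.70 in M and of -5.09, -4.85, -4.10 and -3.49 in N. Ahsg and Fgb lay higher on every M array than on any N array, but group and scan cannot be told apart there. Ttr, another liver gene, was detected on none of the 8.

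Whole gene families differed in how many of their members were detected. Of 83 cytosolic ribosomal protein genes 79 were detected on all 8 arrays, and of 36 complex I subunits 35 were. At the other end, 318 of 917 olfactory receptors (34.7%), 76 of 134 vomeronasal receptors (56.7%), 15 of 28 beta defensins (53.6%), 8 of 16 taste receptors and 10 of 32 interleukins were detected on none of the 8, against 18.1% of all genes. The Hox genes, which keep a record of position along the body axis, were split by paralog group, a division chosen after their values were seen. Of 27 genes of paralog groups 1 to 9, 13 were detected on all 8 arrays and 2, Hoxb1 and Hoxd1, on none. Of 11 genes of groups 10 to 13, which mark the tail end of the body, 0 were detected on all 8 and 7 on none. The median percentile ranks were 53.8 and 23.0. Hoxa7 had levels of 1.76, 0.48, 0.65 and 0.62 in M and of 2.48, 2.72, 2.59 and 2.52 in N.

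The sexing genes went with the labels. Xist, the RNA of the inactive X chromosome, was detected on all 8 arrays. The Y-linked genes Eif2s3y, Kdm5d and Uty were detected on none, and Ddx3y was marked on M1 only, at a level of -1.61. Apoe was detected on all 8, at levels of -0.08, 0.59, 0.62 and 0.69 in M and of 0.30, 0.70, 0.55 and 0.95 in N. Whether its probe lies inside the deleted part of the gene was not tested, so this says nothing about the deletion. The 18 apolipoprotein and cholesterol transport genes were all detected on all 8 arrays, with median percentile ranks of 81.9 ± 1.93 and 81.7 ± 2.18. Apoc1, the neighbour of Apoe, had levels of 4.55, 4.00, 4.65 and 4.17 in M and of 2.38, 1.75, 2.11 and 2.91 in N, and Abca1, the exporter of cell cholesterol, had levels of 3.30, 3.79, 3.72 and 3.50 and of 1.98, 1.48, 2.20 and 2.71.

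Hormone receptors gave modest signals in these ovariectomized mice. The 18 steroid and related receptors had median percentile ranks of 58.5 ± 1.38 in M and 60.1 ± 0.45 in N, and 9 of 18 were detected on all 8 arrays, against 46.2% of all genes. Esr1, the oestrogen receptor alpha, had levels of -0.32, -0.63, -0.48 and -0.89 in M and of -1.63, -1.40, -0.61 and -1.11 in N, marked on all 8. Esr2, the oestrogen receptor beta, was detected on none of the 8, nor was the orphan receptor Esrrb. Pgr, the nuclear progesterone receptor and the main target of both progestins of the study, was marked on all 8 at low levels: -1.94, -2.67, -2.75 and -3.13 in M and -3.12, -3.34, -3.41 and -3.67 in N. M4 and N4 held the lowest Pgr value of their groups. Ranks of Pgr were 11870 to 14498 in M and 15984 to 16876 in N.

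Of the other receptors that progestins bind, Nr3c1, the glucocorticoid receptor, had levels of 4.45, 4.19, 3.62 and 3.68 in M and of 1.64, 1.38, 1.93 and 1.55 in N. Nr3c2, the mineralocorticoid receptor, was marked on 2 of 4 M arrays and 4 of 4 N arrays, at levels of -3.37, -3.95, -3.39 and -3.37 and of -2.99, -3.39, -2.99 and -3.57. Of the membrane progestin receptors Paqr7 was marked on all 8, with levels between -0.30 and 0.03 in M and between 0.22 and 0.34 in N, while Paqr5 and Paqr8 were marked on no M array and on 4 N arrays. The membrane oestrogen receptor Gper1 and the vitamin D receptor Vdr were marked likewise on 0 M and 4 N arrays. Pgrmc1 and Pgrmc2, heme-binding proteins first described as progesterone binders, were detected on all 8.

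Enzymes of steroid synthesis and conversion were detected on all 8 arrays about as often as genes at large. The 20 steroid metabolism genes stood at 53.0 ± 2.98 and 49.7 ± 2.39, with 10 detected on all 8 arrays, against 46.2% of all genes, and 2 (10.0%) on none, against 18.1%. Cyp11a1, the first enzyme of steroid synthesis, and the 5 alpha reductase Srd5a2 were detected on none of the 8, and Cyp19a1, the aromatase that makes oestrogens, on 0 M and 2 N arrays. Hsd11b1, which regenerates active glucocorticoid, was detected on all 8, with levels of 2.69, 2.95, 2.84 and 2.74 in M and of 1.94, 1.70, 1.20 and 1.59 in N. Its counterpart Hsd11b2, which inactivates glucocorticoid, was marked on 0 M arrays and 1 N array. Sts, the sulfatase that frees stored oestrogen, had levels of 0.97, 0.04, 2.77 and 2.55 in M and of 2.53, 2.57, 1.75 and 2.33 in N. The Sts spot of M2, the lowest, lay in a patch. Cyp17a1, the enzyme of androgen synthesis, had levels of -1.90, -1.60, -1.38 and -1.18 in M and of 3.54, 3.44, 3.29 and 2.89 in N. The 21 genes of the glucocorticoid response list on the array stood high, at 94.8 ± 0.64 and 90.3 ± 1.77.

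Genes of vessel tone spanned the whole range, with median percentile ranks of 68.6 ± 1.08 in M and 62.4 ± 2.58 in N over 32 genes. Ptgis, the prostacyclin synthase, had levels of 5.46, 5.74, 4.90 and 5.22 in M and of 4.45, 4.65, 4.49 and 3.95 in N. Gucy1b1, a subunit of the nitric oxide receptor, had levels of 3.88, 3.75, 2.63 and 2.83 in M and of 3.43, 3.68, 3.70 and 3.21 in N, with both slide 1 arrays of M above M3 and M4. Edn1, the vasoconstrictor endothelin, and its receptor Ednra were marked on all 8, with Ednra levels of 0.97, 1.11, 0.63 and 1.20 in M and of 0.40, 0.53, 0.49 and 0.79 in N. The neuronal nitric oxide synthase Nos1 and the angiotensin receptor Agtr2 were among 3 of the 32 genes (9.38%) detected on none of the 8, against 18.1% of all genes. The inducible synthase Nos2 was marked on 0 M arrays and 1 N array.

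Most genes agreed closely between the arrays of a group. Over genes detected on all 4 arrays the median SD was 0.27 log2 units in M and 0.23 in N, and the 90th percentile of SD was 0.58 in both. An SD above 1 was found for 242 genes (1.81%) in M and 342 (1.9%) in N. The 20 genes of largest SD in the 2 groups had 0 in common, and the 100 of largest SD had 1, the interferon-induced chemokine Cxcl10. Its levels were -1.28, -0.21, -1.50 and 1.65 in M, with the M1 spot in a patch, and 0.96, -2.73, -2.51 and -0.41 in N.

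A part of the large SDs belonged to the patches. Of the 242 genes with an SD above 1 in M, 66 (27.3%) had a spot in a patch, against 5.95% of all genes detected on the 4 arrays, and of the 342 in N, 87 (25.4%) did, against 3.40%. In the 20 genes of largest SD the share was 8 of 20 in M and 16 of 20 in N. Where a gene with a patch spot had another probe elsewhere on the array, that probe showed an SD above 1 in the same direction in 2 of 25 cases in M and 0 of 23 in N. Outside patches it did so in 6 of 35 and 5 of 25 cases. Examples inside patches are Hoxc5 in M, with levels of 4.57, -3.24, 2.83 and 3.48, Cxxc4 in N, with 3.56, -3.53, -3.12 and -4.12, and Alkbh3 in N, with 1.62, -2.87, 1.63 and 1.49. Hoxc5 was low on M2, Cxxc4 was high on N1 and Alkbh3 was low on N2, each in a patch of that array. Without genes that have a patch spot, 176 genes in M and 255 in N had an SD above 1.

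**Figure D3:**
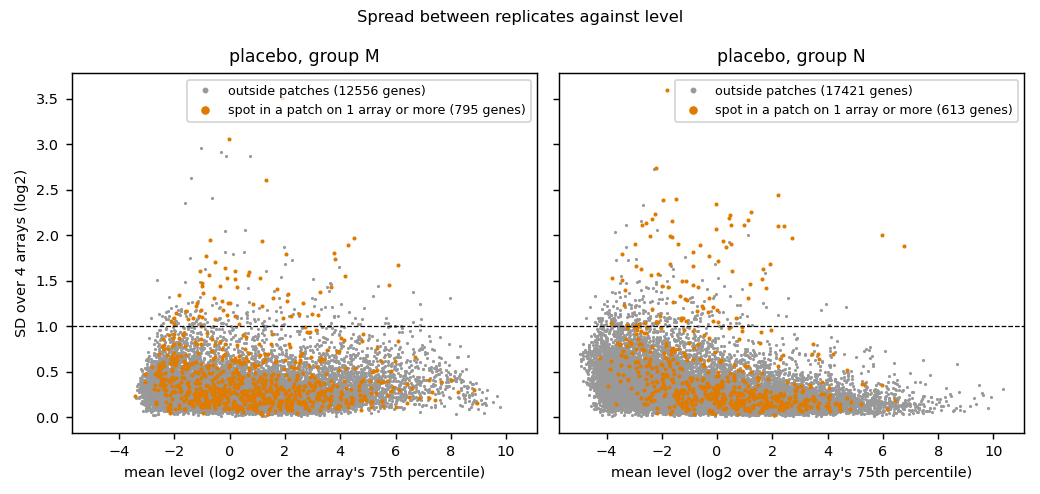
SD over 4 arrays in log2 units on the y axis against mean level on the x axis for each gene detected on all 4 arrays, by group, with genes that have a spot in a patch in orange and a dashed line at an SD of 1. Orange points make up 27.3% of genes above the line in M and 25.4% in N, beside 5.95% and 3.40% of all points.

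The slides went with differences between arrays in both groups, and in N more so among genes of large SD. In M the pairs that shared a slide had the highest r, 0.982 for M1 and M2 and 0.980 for M3 and M4. M1 and M4 had the lowest, 0.965. In N, r was 0.981 for N3 and N4 of slide 5 and 0.983 for N1 and N2 of separate slides. In M the 2 arrays of slide 1 lay both above or both below the other 2 for 51.3% of all genes detected and for 51.1% of the SD above 1 genes outside patches. In N the 2 arrays of slide 5 were set apart from N1 and N2 for 44.3% of all genes. For the SD above 1 genes outside patches it was 72.2%, where 162 of 255 were lower on slide 5 and 22 were higher. With the dimmer genes left out 124 remained in N, of which 65 were lower on slide 5 and 18 higher (66.9% set apart). In M all 176 such genes remained. Slide, scan day and sample cannot be told apart in these counts. The 75th percentile signal used for scaling was 319 and 311 on N1 and N2, and 614 and 618 on N3 and N4. Its part in the lower values of dim genes on slide 5 was not tested. Genes set apart by slide in M, chosen after their values were seen, include Mdga2, with levels of 3.96, 3.54, 0.95 and 0.60, and Barhl1, with 2.51, 3.71, 0.54 and 0.64. In N Heatr7b1 had levels of 1.34, 1.38, -1.11 and -1.89.

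Heart muscle genes made array M4 differ from the other 3 of its group. Of the 9 cardiac list genes detected on all 4 M arrays, 8 were highest on M4 and 7 had an SD above 1, against 1.81% of all genes. Nppa, the atrial natriuretic peptide, had levels of -2.43, -1.30, -1.55 and 3.99 in M and of -1.82, -1.83, -2.22 and -2.35 in N. Myl7, the atrial light chain, had -0.997, -1.02, -1.20 and 2.56 in M, and Sln, sarcolipin, a regulator of the atrial calcium pump, had -1.31, -2.37, -1.77 and 2.93. Tnni3, cardiac troponin I, had -2.60, -2.46, -3.06 and 2.53, and Myl3, the ventricular and slow muscle light chain, had -3.25, -2.48, -1.65 and 3.30. For each of these 5 genes M4 was the highest array and the other 3 lay below 0. Myl2, the ventricular light chain, and Myh6, the alpha myosin heavy chain, were marked on M4 alone in M, at levels of 2.88 and 0.78.

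The exception was Actc1, highest on M1. The list score, which is the mean over members of the level minus the mean of the 4 arrays, with patch spots left out, was -1.13, -0.54, -0.80 and 2.46 on M1 to M4. It was between -0.16 and 0.17 on the N arrays. The 14 cardiac genes had median percentile ranks of 64.3 ± 17.14 in M and 53.6 ± 0.23 in N. None of the single spots of these genes on M4 lay in a patch, and of the 10 spots of Nppa on M4 only 1 did. Whether tissue from the heart or its great vessels was in the M4 sample was not tested.

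Fast skeletal muscle genes made M3 differ in the same way. Tnnc2, Tnni2 and Tnnt3, the fast troponins, had levels of -2.23, 0.00, 4.29 and -2.13, of -2.71, -0.37, 3.93 and -1.33 and of -4.07, -1.56, 2.87 and -4.06 on M1 to M4. Mylpf and Myh4, a light and a heavy chain of fast myosin, had -3.37, -1.89, 1.80 and -2.96 and -3.08, -2.23, 2.17 and -3.60. M3 was the highest array for all 5 and M2 came next. Tnnt3 was marked on 2 and Myh4 on 3 of the 4 M arrays. The Tnnc2 spot on M3 lay in a faint bright patch, whose median departure of 0.51 was small beside the gene's own departure of 6.42. Myh1, another fast myosin, was marked on M3 alone in M, at 2.19. Over the 10 skeletal muscle genes detected on all 4 arrays the list scores were -0.78, -0.34, 1.43 and -0.10, and 7 of 10 were highest on M3. On the N arrays the scores were between -0.09 and 0.19. The median percentile rank of all 26 skeletal muscle genes was 58.3 ± 12.32 in M and 49.0 ± 3.17 in N. Mb, the oxygen store myoglobin of heart and skeletal muscle, was high on both arrays, with -1.38, -1.74, 1.77 and 4.35.

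Mesothelium, the cell layer that lines the chest and abdominal cavities, also varied widely in M. Its 15 genes had median percentile ranks from 40.7 to 74.3 over the M arrays (60.7 ± 14.28) beside 39.6 ± 8.21 in N, and of the 7 detected on all 4, all 7 were lowest on M1. Msln, mesothelin, had levels of -2.41, 2.31, 1.08 and 1.26 in M and of -5.77, -4.39, -2.21 and -0.71 in N. Krt7, a keratin of simple epithelia, had -2.44, 1.73, 0.44 and 0.68 in M, and Upk3b, a uroplakin made by mesothelium, had -5.96, 0.26, -1.44 and -1.40 in M and -6.85, -6.79, -6.12 and -2.62 in N. M2 was the highest M array for all 3 genes, and N4 the highest N array for Msln and Upk3b. In N, Msln was marked on 3 arrays and Upk3b on 1. Array scores were -1.57, 0.97, 0.24 and 0.36 in M and -0.36, -0.17, 0.00 and 0.48 in N. The mesothelial genes Bnc1 and Cdh1 were detected on none of the 8 arrays.

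**Figure D4:**
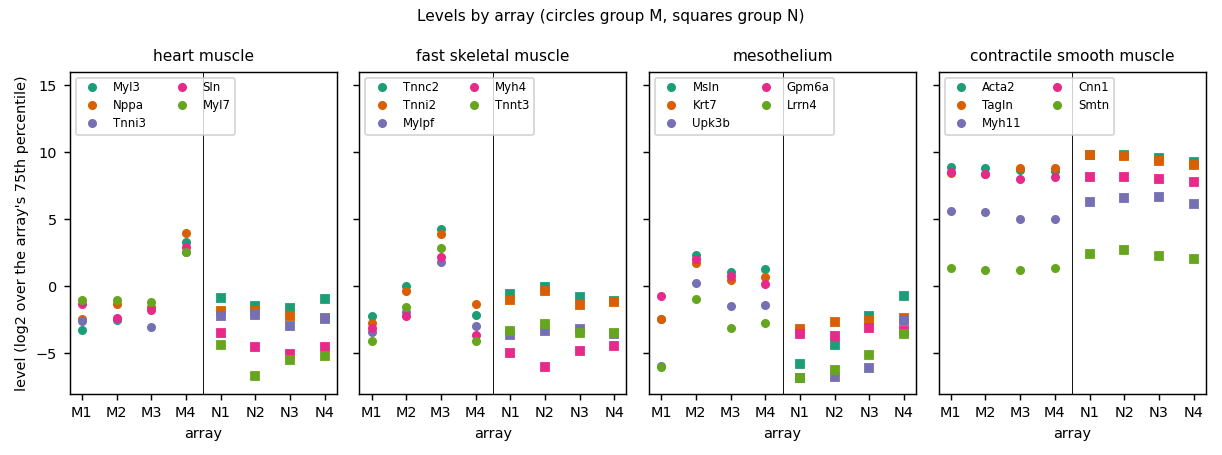
Levels (log2, relative to the 75th percentile) by array of 5 heart, 5 fast skeletal muscle, 5 mesothelial and 5 contractile smooth muscle genes. Heart genes stand out on M4, fast muscle genes on M3 and low mesothelial genes on M1, while the contractile genes keep nearly the same level on the arrays of a group.

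M4 was also the highest array of its group for several immune lists. The dendritic cell and MHC class II score was 1.02 on M4 with -0.74, -0.05 and -0.25 on M1 to M3, and 8 of 10 members were highest on M4. For cytokines and chemokines the M4 score was 1.00, with 21 of 24 highest, for macrophages 0.72, with 17 of 20 highest, and for neutrophils 1.05, with 3 of 5 highest. Other immune lists did not follow this order: the B and plasma cell score was -0.32 on M4, the lowest of the group, and 0.32 on M3, and the mast cell score was 0.12 on M4 and 0.19 on M3. Ccl8, a chemokine for monocytes, had levels of 2.12, 2.64, 2.56 and 5.00 in M. Saa3, an acute phase protein made by macrophages and fat, had 0.25, -0.73, -0.64 and 3.14, and Il6, the fever cytokine, had -0.02, -0.43, 0.42 and 2.74. M4 stood apart from the other 3 for all 3 genes. M1 was the lowest array for 16 of 20 macrophage genes. Of 14 osteochondrogenic genes detected on all 4 M arrays, 6 were highest and 3 lowest on M4, and 1 had an SD above 1. Examples chosen for being high on M4 are Col2a1 and Ibsp. Col2a1, the collagen of cartilage, had 1.57, 1.00, 0.29 and 3.51 in M, and Ibsp, the bone sialoprotein, had -4.51, -6.11, -2.66 and 0.34, marked on 2 of 4 arrays. The 23 osteochondrogenic genes as a list stood at 62.9 ± 7.11 and 56.8 ± 6.06, with Tnfsf11 and Msx2 detected on none of the 8, and their score on M4 was 0.25. The part of heart or other tissue in the immune and cartilage values of M4 was not tested.

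Red cell genes were spread over the M arrays, with M1 at the high end and M4 at the low end. Over 10 erythroid genes the scores were 0.67, -0.32, 0.19 and -0.54 in M and -0.46, 0.05, 0.33 and 0.08 in N. In M, 7 of 10 were highest on M1 and 3 on M3, and 7 were lowest on M4. Alas2, the heme synthesis enzyme of red cell precursors, had levels of 6.31, 4.85, 5.69 and 4.41 in M and of 4.52, 5.38, 5.87 and 5.41 in N. Globins moved little beside these values, with SDs of 0.23 and 0.10 for Hbb-bt. As a list the 15 erythroid genes on the array stood at 63.3 ± 6.49 and 61.1 ± 3.98.

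In group N, macrophage and foam cell genes were among those that set array N4 apart. N4 was highest for 19 of 20 macrophage genes and for 19 of 20 foam cell genes, with scores of 0.78 and 0.82, and it was lowest for 22 of 24 contractile genes, with a score of -0.32. Gpnmb, a lysosomal protein of foam cells, had levels of 4.32, 3.55, 2.96 and 5.30 in N, and Msr1, the scavenger receptor that takes up modified lipoprotein, had -2.80, -3.09, -2.58 and -0.84. Trem2, the lipid receptor of foam cells, had 3.44, 2.80, 2.98 and 4.33. N4 was also highest for 5 of 5 lymphatic genes, 16 of 20 complement genes and 20 of 26 cytokines and chemokines, with scores of 0.83, 0.54 and 0.59. Wall and fat lists moved the same way by less. N4 was highest for 14 of 18 fibroblast, 15 of 25 endothelial and 13 of 21 adipocyte genes, with scores of 0.24, 0.17 and 0.36. Only 3 of 15 T and NK cell genes were highest on N4, with a score of -0.11. N3 was lowest for 17 of 20 macrophage genes, with a score of -0.50. N3 and N4 shared a slide, so the difference between them lay within a slide. These counts describe list members that share a sample, and they are not independent observations.

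Most B cell genes in N were highest on N2, with N4 second by list score. The B and plasma cell score was -0.39, 0.66, -0.47 and 0.20 on N1 to N4, and 11 of 13 members were highest on N2 and 1 on N4. Jchain, the joining chain of secreted antibodies, had levels of -4.71, -0.74, -5.03 and 0.58, Cd79b, a part of the B cell receptor, had -0.75, 1.30, -0.61 and 0.61, and Fcer2a, the IgE receptor of B cells, had -4.56, -1.87, -4.12 and -3.69. Jchain and Fcer2a were marked on 3 of 4 N arrays. Antibody probes chosen after their values were seen were highest on N4. The kappa chain probe AF152371 had -1.09, 1.98, -1.37 and 2.21, and the heavy chain probe ENSMUST00000103426 had -0.67, 1.53, -0.15 and 3.76. N2 and N4 were thus the high arrays for both and N1 and N3 the low ones.

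Immediate early genes, which are switched on within minutes of a stimulus, were as a list highest on N1. The score was 0.51, 0.01, -0.51 and 0.01 on N1 to N4. Of 26 members, 16 were highest on N1 and 9 on N4, and 19 were lowest on N3. Fos had levels of 2.68, 1.00, 0.57 and 0.15, Nr4a1 had 5.34, 4.25, 3.38 and 3.57, and Atf3 had 4.03, 2.24, 0.93 and 3.02. All 3 were highest on N1, and their spots lay outside the bright patch of that array. In M the scores were between -0.13 and 0.15, and Fos had levels of -0.71, -1.44, -1.28 and -0.91. As a list the 27 genes stood at 80.6 ± 1.70 and 83.6 ± 3.77, and Nr4a3 was detected on none of the 8.

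**Figure D5:**
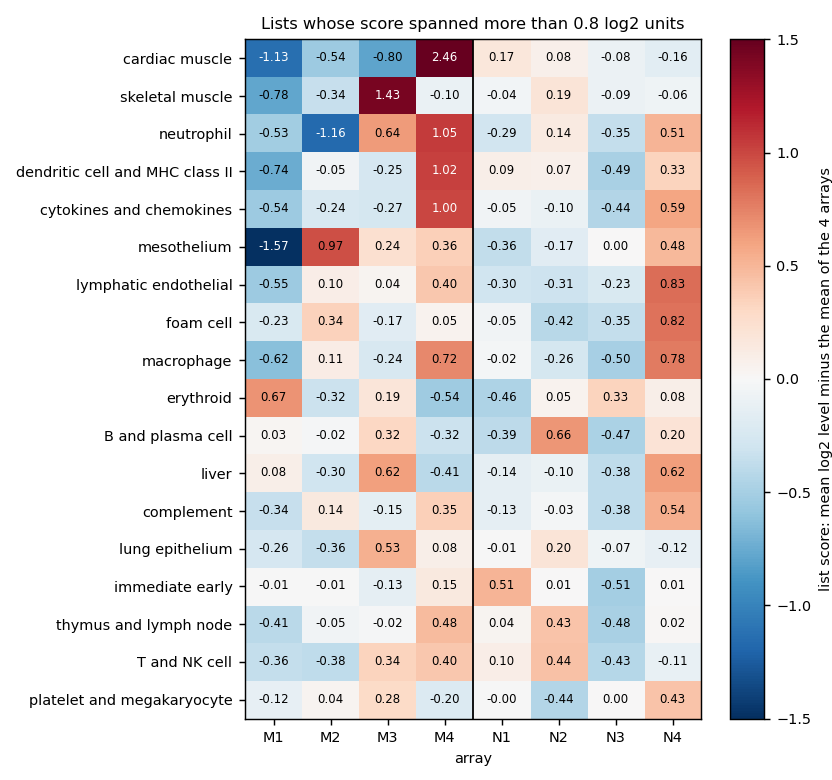
List score (mean over members of the log2 level minus the mean of the 4 arrays of the group) by list and array, for lists whose scores spanned more than 0.8 log2 units within a group. Cardiac muscle on M4 (2.46), mesothelium on M1 (-1.57) and skeletal muscle on M3 (1.43) are the strongest cells, and foam cell genes on N4 stand at 0.82.

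Circadian clock genes stood at 75.9 ± 1.12 and 71.7 ± 2.02, coagulation and fibrinolysis genes at 82.3 ± 1.15 and 84.2 ± 2.17, and cell cycle genes at 62.1 ± 3.02 and 60.1 ± 2.95. Among cell cycle genes detected on all 4 arrays of a group, 15 of 23 were highest on M4 and 20 of 26 on N4, with scores of 0.32 and 0.46.

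Genes that varied in a placebo group were looked up in the arrays that had no part in choosing them. The 100 genes of largest SD in M had a median SD percentile of 58.4 in N (95 genes detected there), 81.2 in the MPA arrays and 71.7 in the NET-A arrays, where 50 is the middle of all genes. The 100 of N had 64.9 in M (50 detected), 70.5 in the MPA arrays and 67.9 in the NET-A arrays. When genes with a patch spot were passed over and the next were taken, the percentiles were 79.4 in N for genes from M, and 94.8 in M for genes from N, of which 26 were detected there. The choice outside patches from N reached 97.9 in the NET-A arrays, where 62 of 88 genes had an SD above 1. Arrays of N and NET-A shared slides and scan days, as did those of M and MPA. The heart genes of M4 had a partial counterpart outside the placebo arrays. On NET-A replicate 2, Tnni3 was at 0.07, Myl3 at -0.16 and Pln at -2.22, each the highest NET-A value. These lay well below their M4 levels of 2.53, 3.30 and 2.74. Other genes stood further apart there. NET-A replicate 2 had levels of 1.56 for Myl7, 1.35 for Sln and 0.82 for Nppa, and the other 3 NET-A arrays lay between -6.05 and -2.94, between -4.25 and -2.52 and between -2.39 and -1.85.

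At the other end of the scale were genes whose level hardly moved over these arrays. The 10 genes of smallest SD in both groups were Leng1, Cln6, Exoc8, Fdx1, Klhl11, Mrrf, Mroh1, Taf5l, Zfyve26 and A430035B10Rik. They were picked by these same SDs and were not looked up in the MPA or NET-A arrays. Leng1 had an SD of 0.01 in M and 0.03 in N. Among commonly used reference genes the SDs in M and N were 0.07 and 0.20 for Gapdh, 0.21 and 0.19 for Actb, 0.15 and 0.18 for Tbp, 0.45 and 0.15 for Hprt, 0.52 and 0.17 for Rpl13a and 0.18 and 0.38 for B2m. Hprt and Rpl13a in M lay above the median SD of all genes, 0.27, and B2m in N lay above 0.23. The 15 reference genes had median percentile ranks of 97.3 ± 0.27 and 96.1 ± 0.50.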

How the data were processed

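The values were deposited as scanner files: per the file headers, Agilent Feature Extraction 10.7.1.1 (group M) and 11.0.1.1 (group N) gave a processed signal intensity per spot, already background-subtracted, with coordinates of build mm9. The authors' deposited value table holds log2 values whose scale, centring and direction are not stated. It was used as an alternative, and differences between arrays 1 and 2 of a group correlated with those of the scanner values at 0.968 (M) and 0.953 (N). Each array held 45018 spots, 43379 of them no controls, and 67.4% to 77.8% of spots were well above background in N and 51.5% to 56.3% in M. The number of arrays limits the precision.

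Levels were log2 of the intensity minus each array's 75th percentile over spots that are no controls. Spots marked as outliers were left out, which left 906 of 329392 probe values (0.275%) missing. Spots of a probe were averaged, and a gene took its probe of highest mean over the 8 placebo arrays, 28369 genes from 41174 probes. Symbols were matched by accession to the RefSeq gene table for 27764 probes, of which 3660 took a newer symbol, and 13410 kept the name on the array. A probe was detected on an array where at least 50% of its spots were marked well above background. A patch is an area where the local median of spots, over 13 rows and 5 columns, departed by more than 0.5 log2 units from the other arrays of the group. Python 3.11.15, numpy 2.4.6, pandas 2.3.3, R 4.3.3 and limma 3.58.1 were used, and the scripts were tested on simulated data.

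No test was made between groups. The arrays and the 53 gene lists were chosen with earlier results of these data known. By rule the text names the 25 brightest genes and the 20 of largest SD per group, up to 4 brightest and 4 most variable members per list, members detected nowhere, the 10 most stable genes and the reference genes. Other genes, mostly textbook markers and receptors of the lists, the Hox division and the antibody probes, were chosen after their values were seen. A few list members that these rules would name are not reported here.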

Additional observations from a re-analysis of the deposited data

Results flagged for a closer look

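In groups of 4 arrays, the gap between the farthest array and its nearest neighbour was divided by the range of the 4. Of 139 such values looked at, which are list scores and the 20 genes of largest SD in each group, 26 had an array that stood far apart by Dixon's 95% criterion. Chance alone puts about 1 in 20 groups past it, and the genes were picked for their spread, so more are to be found among them. Among the list scores only cardiac muscle, lymphatic endothelial and circadian clock were past it, a share below 1 in 20. All others of the 26 were genes of largest SD.

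Among lists, the cardiac muscle score was far highest on M4 (ratio 0.836), the lymphatic endothelial score was far highest on N4 (0.931) and the circadian clock score was far highest on M1 (0.845). The clock scores were 0.14, -0.04, -0.03 and -0.06 on M1 to M4, a small spread. Heart genes that stood apart on M4 were Myl7 (0.946) and Tnni3 (0.894), neither with a patch spot there.

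In M, 5 genes were far lowest on M2, and the spot of each lay in a patch of that array: B4galt1 (0.834), Mark2 (0.842), Pdcd6ip (0.895), Rpl7l1 (0.913) and NAP102109-1 (0.940). In N, 4 genes were far lowest on N2, again with the spot in a patch: Alkbh3 (0.970), Vps26c (0.947), Asns (0.896) and Fkbp8 (0.888).

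Genes far highest on N1 with the spot in its bright patch were Cxxc4 (0.870), Krt8 (0.837), Fabp2 (0.911), Adgrf3 (0.897), Camk4 (0.884), Slc6a11 (0.862), 4933427D14Rik (0.912), ENSMUST00000049869 (0.915) and ENSMUST00000051742 (0.886). Susd4 (0.859) and LOC100044247 (0.906) were far highest on N1 outside a patch, though the Susd4 spot lay 1 row from a patch spot. AK014007 (0.949) was far highest on N3, with no patch near its spot.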

How the results depend on the processing

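No paired analysis was possible because the results come from no test and the placebo groups are not compared. Depth of signal sets a limit: genes near background carry order only loosely, and the mark of detection sets the counts. With the less strict mark of a positive and significant signal, 5948 genes (M) and 2255 (N) were detected on none of 4 arrays, in place of 11306 and 5715. Leaving out each array in turn gave 11508 to 12080 and 5830 to 6363 for that count, 13554 to 13670 and 18072 to 18623 for genes detected on the rest, 211 to 314 (M) and 362 to 464 (N) for SDs above 1, and 48.3 to 81.3 (M looked up in N) and 62.1 to 78.8 (N looked up in M) for the median SD percentile. The count of SDs above 1 was 159 in M after normexp background correction (140 shared with the count as reported), 2008 (M) and 1753 (N) with no filter on dim genes, 378 in M with outlier spots kept and 195 in N among the brighter 50% of genes. Looked-up percentiles for N in M were 78.0 with normexp, 19.02 with no filter, 89.4 with slide as a block and 94.8 with patch spots left out, and for M in N they were 75.5 with no filter and 79.4 with patch spots left out. With the median over a gene's probes, the percentile ranks were 96.8 for contractile genes in M, 86.2 (M) and 86.3 (N) for endothelial, 93.3 and 92.8 for fibroblast, and 95.8 and 93.7 for adipocyte genes. Of 106 list percentiles, 95 moved by less than their SD with normexp and 48 with the median over probes. With slide as a block, 18 of the 20 genes of largest SD in N fell to an SD of 1 or less, since N1 and N2 then have no partner. A like count can hold other genes: of 342 genes in N, 147 were among the 350 found with normexp and 87 among the 322 with slide as a block, and of 242 in M, 145 were among the 202 with slide as a block. Large list scores checked in M were cardiac muscle and dendritic cell and MHC class II on M4, skeletal muscle on M3 and mesothelium on M1. In N they were macrophage and foam cell on N4, B and plasma cell on N2 and immediate early on N1. Each of them kept its sign under normexp, quantile normalization and with patch spots kept. The other list scores were not checked in this way. The patch, brighter 50%, authors' table and list score settings were added after seeing the data, and the authors' table gave 219 (M) and 326 (N) SDs above 1.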
